A study of Homo sapiens with 5 samples.

Results

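Aminoacyl-tRNA synthetases join each amino acid to the tRNAs that carry its anticodon, the step that fixes the genetic code before a ribosome reads a message. Human cells hold separate nuclear-encoded sets for the cytosol and for mitochondria, where the second set serves the few proteins that mitochondrial DNA encodes. The family described here has 35 genes, 19 for enzymes of the cytosol (GARS1 and KARS1, whose products serve both compartments, were counted here) and 16 for mitochondrial enzymes, whose symbols end in 2. Members were found by the gene symbol of their probes on an Illumina bead array. A gene was kept where a probe was detected (detection p under 0.05 against the negative control beads) on at least 2 of 4 independent arrays, and 1 probe, the brightest, stood for it. This gave 34 genes, 18 cytosolic and 16 mitochondrial, of 12080 genes measured, and each of the 34 was detected on all 4 arrays. CARS1, the cytosolic enzyme for cysteine, was matched to no named probe and is not analysed here.

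The study compared MDA-MB-231 cells given 10 µM fluvastatin for 24 h with cells given sterile water for 24 h. The line, an established one from human breast cancer, is classed in the labels as basal and ER negative, that is, without the estrogen receptor. Fluvastatin belongs to the statins, which inhibit the mevalonate pathway. The labels list 2 fluvastatin samples and 3 controls, but control 2 was the arithmetic mean of controls 1 and 3 in 47231 of 47231 probes (within 1e-06) and was left out, so 2 fluvastatin arrays were set against 2 control arrays. Nothing in the labels says that replicates were separate cultures, and every p-value here reflects the spread among 4 arrays alone.

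All 7 mesenchymal and basal markers examined, among them VIM and CD44, were detected on 4 arrays, and 5 of 8 luminal markers, ESR1 and PGR among them, on none. The other 3 luminal markers, GATA3, XBP1 and KRT19, were detected on all 4 arrays. Of the 13 markers that passed the detection filter, 1 passed the test described below: KRT19, a keratin of simple epithelia, rose, with log2 intensities of 12.49 and 12.49 with fluvastatin against 11.08 and 11.19 in controls (log2 fold change 1.35 ± 0.15, limma adjusted p = 0.0096). Of 8 markers of fibroblasts, leukocytes and endothelium, PDGFRB, CD68 and PECAM1 passed the filter and did not pass the test, LUM was detected on 1 array, and DCN, PTPRC, CD3E and VWF were detected on none. The part of the markers in the results was not tested. Detected probes made up 46.9% and 44.9% of all probes on the fluvastatin arrays and 46.1% and 43.0% on the control arrays. The correlation across the probes kept, which are no independent replicates, was 0.982 between the fluvastatin arrays and 0.994 between the controls. Within-group spread was larger with fluvastatin than in controls for 22 of the 34 synthetases. Their median SD was 0.120 with fluvastatin and 0.061 in controls. Over all genes it was 0.169 and 0.078, so the larger spread was not particular to the synthetases. Fewer RNA molecules per cell and fewer cells that express a gene cannot be told apart in these bulk samples.

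Transcripts of 6 synthetases fell with fluvastatin, those of 0 rose and 28 did not pass the test (limma, two-sided, with Benjamini-Hochberg adjustment over all probes kept and a threshold of 0.05). The 6 were MARS2, NARS2, LARS2 and YARS2 of the mitochondrial set and VARS1 and TARS1 of the cytosolic set. The share of members that fell was 17.6%. Over all genes measured, 20.1% passed by the same rule, 9.65% lower and 10.5% higher. At an unadjusted p under 0.05 the members gave 1 higher and 11 lower of 34, where 20.8% of all genes were higher and 19.2% lower. The median log2 fold change of the 34 was -0.20, against 0.01 for all genes measured. It was -0.27 in fluvastatin replicate 1 and -0.18 in replicate 2, each against the mean of the controls.

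Both fluvastatin arrays lay below both controls in 19 of the 34 members and above them in 8, and the groups overlapped in 7. Of all genes, 33.7% lay below in this way and 35.9% above. With arrays scaled to equal medians, which put the median of all genes at 0.22, 8 members lay below and 9 above, against 16.1% and 43% of all genes. On that scale 1 member passed as lower (MARS2) and 2 as higher (RARS2 and TARS2), while 22.2% of all genes passed. The median of the 34 was then 0.05, or -0.17 relative to that shift. With median scaling limma also gave every member the same moderated SE, 0.296, where the SE ran from 0.150 to 0.286 before. Calls on that scale therefore reflect a shared variance as well as the scaling. Without control replicate 1, and likewise without control replicate 3, MARS2 was the member that passed (1 of 34), while the share of all genes called was 1.93% and 1.5%.

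**Figure D1:**
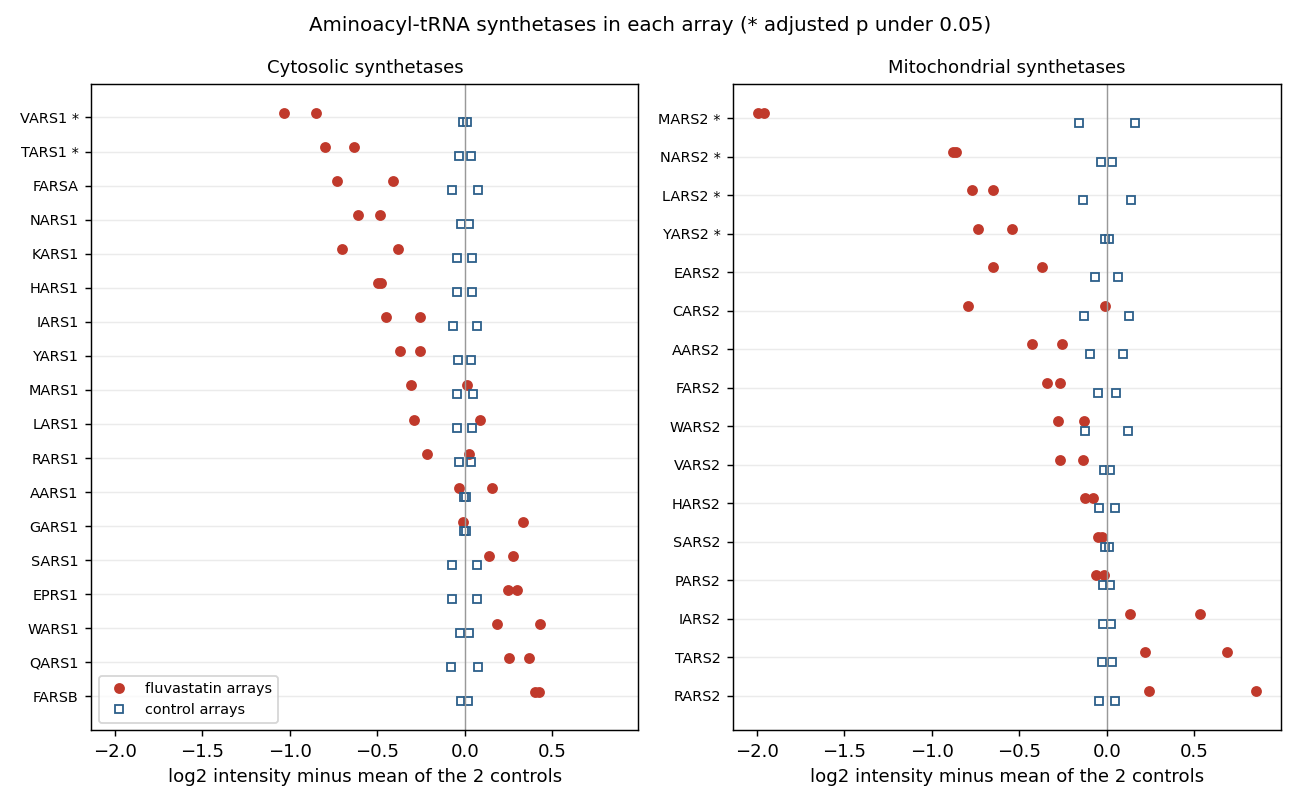
Normalised log2 intensity of each synthetase in every array, minus the mean of the 2 controls, for cytosolic (left) and mitochondrial (right) enzymes; filled circles are the fluvastatin arrays, open squares the control arrays, and asterisks mark an adjusted p under 0.05. MARS2 lies farthest from its controls, and the fluvastatin arrays lie below both controls in 19 of 34 genes and above them in 8.

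The mitochondrial enzymes gave 4 lower and 0 higher of 16, and the cytosolic enzymes 2 lower and 0 higher of 18. At an unadjusted p under 0.05 the mitochondrial set had 0 higher and 5 lower and the cytosolic set 1 higher and 6 lower, against 20.8% higher and 19.2% lower of all genes. Median log2 fold changes were -0.13 for the cytosolic set and -0.25 for the mitochondrial set. Without fluvastatin replicate 1 the order was turned, with -0.24 for the cytosolic set and -0.14 for the mitochondrial set. The difference between the sets was not tested.

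MARS2 charges mitochondrial tRNA with methionine, the amino acid that also starts mitochondrial proteins after formylation. Its normalised log2 intensity was 6.28 and 6.25 in the fluvastatin arrays, against 8.40 and 8.08 in controls 1 and 3. The deposited intensities behind these were 142.3 and 138.9 with fluvastatin and 382.7 and 245.8 in controls. Both fluvastatin arrays were below both controls, and they lay closer to each other than the controls did. The log2 fold change was -1.98 ± 0.18 (moderated SE; limma adjusted p = 0.0072), the largest in size among the 34 members. It was -1.46 without background correction and -1.39 on the authors' deposited log2 values, and the call was kept in each of 13 other settings. A second MARS2 probe was detected on 1 array and was not used.

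NARS2 charges mitochondrial tRNA with asparagine. Its log2 intensity was 7.15 and 7.13 with fluvastatin, against 7.98 and 8.05 in controls, a log2 fold change of -0.87 ± 0.15 (limma adjusted p = 0.0212). LARS2, the mitochondrial enzyme for leucine, had 7.34 and 7.22 with fluvastatin and 7.85 and 8.12 in controls, a log2 fold change of -0.71 ± 0.17 (limma adjusted p = 0.0456). In both genes the groups were apart, and in LARS2 the controls differed more from each other than the fluvastatin arrays did. YARS2, the mitochondrial enzyme for tyrosine, had 8.91 and 9.11 with fluvastatin and 9.63 and 9.66 in controls, a log2 fold change of -0.64 ± 0.16 (limma adjusted p = 0.0485). The last of these is near the threshold. LARS2 passed in 7 of 13 other settings and YARS2 in 8. Neither passed without the filter on dim probes (limma adjusted p = 0.0620 and 0.0539) or with median scaling (limma adjusted p = 0.351 and 0.354). The other settings in which they failed each left out 1 array. Across settings log2 fold changes ran from -0.83 to -0.42 for LARS2 and from -0.73 to -0.42 for YARS2. Deposited intensities of LARS2 were 246.8 and 217 with fluvastatin, against 274.2 and 250.7 in controls. Those of YARS2 overlapped, with 628 and 643.6 against 851.6 and 642.7.

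VARS1, the cytosolic enzyme for valine, had log2 intensities of 10.13 and 10.31 with fluvastatin, against 11.17 and 11.15 in controls. The controls were nearly equal and both fluvastatin arrays lay below them, with a log2 fold change of -0.94 ± 0.16 (limma adjusted p = 0.0203). TARS1, the cytosolic enzyme for threonine, had 11.17 and 11.34 with fluvastatin, against 12.01 and 11.94 in controls, a log2 fold change of -0.72 ± 0.16 (limma adjusted p = 0.0363). VARS1, NARS2 and TARS1 each passed in 10 of 13 other settings. They failed with median scaling and without either control array. A second probe of VARS1 was detected on no array and was not used.

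**Figure D2:**
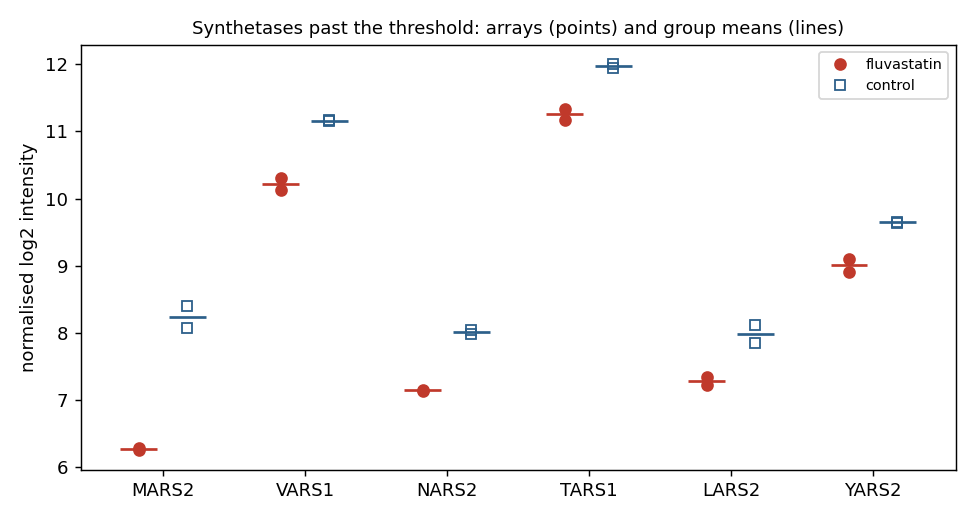
Normalised log2 intensity of the 6 synthetases past the threshold, with fluvastatin arrays as filled circles on the left and control arrays as open squares on the right of each pair; lines are group means (n = 2 each). In each gene both fluvastatin arrays lie below both controls, and the gap is widest for MARS2.

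Of the other cytosolic enzymes, 4 had both fluvastatin arrays under both controls with an unadjusted p under 0.05 but did not pass after adjustment. Among all genes 33.7% had both arrays under both controls, and 19.2% were lower at an unadjusted p under 0.05. The asparagine enzyme NARS1 was at -0.55 ± 0.15 (limma adjusted p = 0.0643) and the histidine enzyme HARS1 at -0.49 ± 0.15 (limma adjusted p = 0.0798). FARSA, the catalytic subunit of the phenylalanine enzyme, was at -0.57 ± 0.18 (limma adjusted p = 0.0834) and the lysine enzyme KARS1 at -0.54 ± 0.18 (limma adjusted p = 0.0903). NARS1 passed in 8 of 13 other settings, HARS1 in 6, FARSA in 5 and KARS1 in 4. On the authors' deposited log2 values all 4 passed, as did FARSB, so that 11 members were called there, 1 higher and 10 lower. Of all genes, 27.5% were called on those values, against 20.1% here.

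FARSA and FARSB are the subunits of 1 enzyme, and their transcripts lay on opposite sides of the controls. FARSA had log2 intensities of 8.05 and 7.73 with fluvastatin, against 8.39 and 8.53 in controls. FARSB had 14.11 and 14.13 with fluvastatin, against 13.69 and 13.73 in controls, a log2 fold change of 0.41 ± 0.15 (limma adjusted p = 0.111). Neither passed, and the groups did not overlap in either gene. Over all genes 33.7% lay below both controls in this way and 35.9% above them. FARSB was the member with the smallest p among the 10 with a positive fold change. A second FARSB probe was detected on 1 array and was not used. Its deposited intensities were 60.9 and 65.4 with fluvastatin, against 79.5 and 60.6 in controls. The probe used had 19773.1 and 19911.7 with fluvastatin, against 13032.2 and 10793.7 in controls. The direction of FARSB thus rests on 1 probe.

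Positive fold changes that did not pass were also found for RARS2, TARS2 and IARS2 of the mitochondrial set. RARS2, for arginine, had 8.87 and 8.26 with fluvastatin, against 7.98 and 8.07 in controls (log2 fold change 0.55 ± 0.24, limma adjusted p = 0.158). TARS2, for threonine, had 7.64 and 7.17 with fluvastatin, against 6.92 and 6.98 in controls (0.45 ± 0.20, limma adjusted p = 0.174). IARS2, for isoleucine, had 11.63 and 11.22 with fluvastatin, against 11.11 and 11.07 in controls (0.33 ± 0.19, limma adjusted p = 0.268). In all 3 the higher value was that of fluvastatin replicate 1, and the fluvastatin arrays were farther apart than the controls. Without fluvastatin replicate 2 these 3 passed as higher, and CARS2, for mitochondrial cysteine, passed as lower, in a setting where 37.3% of all genes passed. CARS2 had 7.30 and 8.08 with fluvastatin, against 8.22 and 7.96 in controls, so that only fluvastatin replicate 1 lay outside the range of the controls.

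The cytosolic enzymes with positive fold changes were small in effect. Log2 fold changes were 0.31 for QARS1 (glutamine), 0.31 for WARS1 (tryptophan), 0.27 for EPRS1, which charges tRNA with glutamate and with proline, and 0.21 for SARS1 (serine). In these 4 both fluvastatin arrays lay above both controls, as in 35.9% of all genes, and adjusted p ran from 0.223 to 0.399 by limma. GARS1 (glycine, 0.16) and AARS1 (alanine, 0.06) overlapped with the controls. So did RARS1 (-0.10), LARS1 (-0.10) and MARS1 (-0.15), whereas IARS1 (-0.35) and YARS1 (-0.31) lay below them. None of these passed in the comparison of 4 arrays.

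Of the mitochondrial enzymes not yet described, EARS2, for glutamate, was at -0.51 ± 0.17 (limma adjusted p = 0.0976), AARS2 at -0.34 and FARS2 at -0.30. WARS2 (-0.20), VARS2 (-0.20), HARS2 (-0.10), SARS2 (-0.04) and PARS2 (-0.04) were nearer to 0. In these 8 genes other than PARS2 both fluvastatin arrays lay below both controls, as they did in 33.7% of all genes.

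For 12 amino acids a cytosolic and a mitochondrial enzyme, each from its own gene, could be set side by side. In 6 pairs both fold changes were negative, in 0 pairs both were positive and in 6 pairs they had opposite signs. In 6 pairs 1 partner passed, and in 0 pairs did both. By the same rule 9.65% of all genes passed as lower and 10.5% as higher. The widest gap was that of the methionine enzymes, with log2 fold changes of -0.15 for MARS1 and -1.98 for MARS2. The threonine enzymes came next, with -0.72 for TARS1 and 0.45 for TARS2. The valine enzymes had -0.94 for VARS1 and -0.20 for VARS2, while the asparagine enzymes were both low, with -0.55 for NARS1 and -0.87 for NARS2. The signs depended on the scale. With median scaling both partners were positive for arginine (0.05 and 0.80), serine (0.39 and 0.18) and tryptophan (0.52 and 0.07). In the comparison of 4 arrays 5901 of all 12080 genes had a negative fold change. Differences between partners were not tested.

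**Figure D3:**
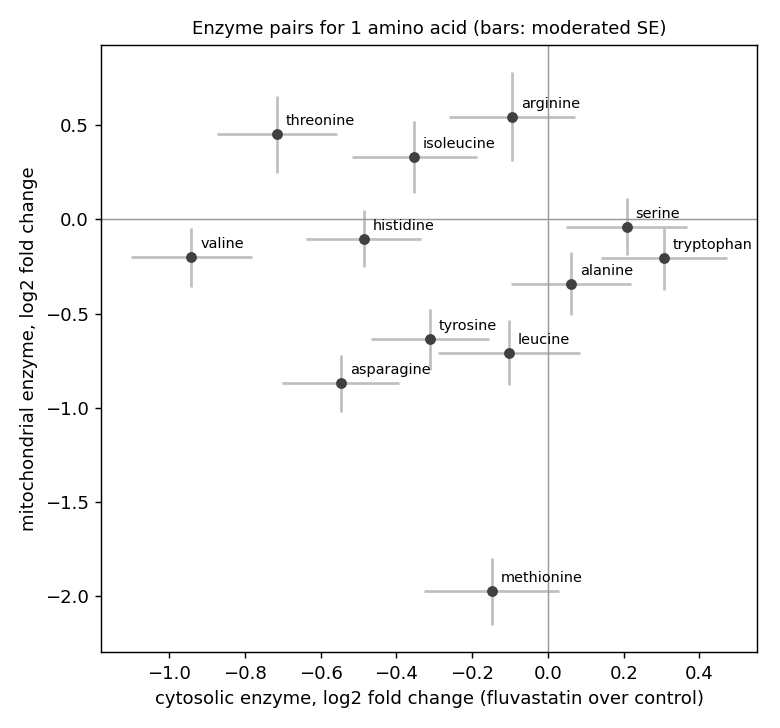
Log2 fold change (fluvastatin over control) of the cytosolic enzyme on the horizontal axis and of the mitochondrial enzyme for the same amino acid on the vertical axis, for 12 amino acids; bars are moderated standard errors. Methionine stands lowest, with -1.98 for MARS2 against -0.15 for MARS1. No pair has both values above 0 on this quantile-normalised scale, but arginine, serine and tryptophan do with median scaling.

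HARS1 and HARS2 are neighbours that are transcribed away from each other from starts 84 bases apart, so their promoters share sequence. The stretch between the starts (RefSeq, GRCh38.p14, chr5:140691371-140691454, plus strand, with HARS1 to the left and HARS2 to the right) is shown because both genes are members and read out from it:

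HARS1-HARS2: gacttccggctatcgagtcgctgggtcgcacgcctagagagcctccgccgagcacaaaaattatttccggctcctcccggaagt

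HARS1 had log2 intensities of 10.33 and 10.35 with fluvastatin, against 10.78 and 10.87 in controls. HARS2 had 9.25 and 9.30 with fluvastatin, against 9.42 and 9.33 in controls. Both lay below their controls, HARS1 by more than the spread of its arrays and HARS2 by less than that between its controls at the nearest arrays, and neither passed.

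Several synthetase genes are known targets of ATF4, the transcription factor of the integrated stress response, which is made when amino acids run short or uncharged tRNA accumulates. ATF4 binds with C/EBP partners at elements of the form TGATGNAA. RefSeq promoters (250 bases before to 50 after a start, GRCh38.p14) were listed for 30 of the 35 genes, 39 promoters in all. TGATGNAA, searched on both strands, was in 20.5% of these 39 and in 3.62% of all 35116 promoters of the same length. It was in 7 of the 10 listed genes known as ATF4 targets and in 1 of 20 others, YARS2. The 8 matches are shown with their surroundings, each on the strand of its gene, with the element in capitals (TTNCATCA where it lies on the opposite strand).

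AARS1, chr16:70289675-70289704, minus strand: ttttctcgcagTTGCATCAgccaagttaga

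CARS1, chr11:3057407-3057436, minus strand: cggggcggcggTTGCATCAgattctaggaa

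GARS1, chr7:30594834-30594863, plus strand: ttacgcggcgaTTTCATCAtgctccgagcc

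IARS1, chr9:92293692-92293721, minus strand: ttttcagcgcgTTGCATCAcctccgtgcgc

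MARS1, chr12:57488053-57488082, plus strand: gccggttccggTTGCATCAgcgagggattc

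NARS1, chr18:57621804-57621833, minus strand: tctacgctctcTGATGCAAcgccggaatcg

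TARS1, chr5:33440956-33440985, plus strand: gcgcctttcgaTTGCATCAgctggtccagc

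YARS2, chr12:32756076-32756105, minus strand: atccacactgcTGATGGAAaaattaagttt

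A match describes letters in the window and does not show binding. Among the measured genes shown, log2 fold changes were 0.06 for AARS1, 0.16 for GARS1, -0.15 for MARS1, -0.35 for IARS1, -0.55 for NARS1, -0.64 for YARS2 and -0.72 for TARS1, so the genes with the element lay on both sides of 0. The 11 measured synthetases that ATF4 is known to induce had a median log2 fold change of -0.10, with 1 lower (TARS1) and 0 higher. The other 7 cytosolic members had a median of -0.49, with 1 lower (VARS1) and 0 higher. At an unadjusted p under 0.05 the ATF4-induced members gave 0 higher and 2 lower, and the other cytosolic members 1 higher and 4 lower, where 20.8% of all genes were higher and 19.2% lower. The difference between these groups was not tested.

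A list of 28 genes outside the family, ATF4, genes it is known to induce and the gene of the sensor kinase EIF2AK4, was read from the same comparison. Of 25 measured, 7 rose, 5 fell and 13 did not pass, a share of 28% higher and 20% lower against 10.5% and 9.65% of all genes. DDIT3, a stress-induced transcription factor, rose, with 8.76 and 8.41 with fluvastatin against 7.24 and 7.39 in controls (log2 fold change 1.27 ± 0.19, limma adjusted p = 0.0152). The stress-response gene NUPR1 rose by 1.47 ± 0.18 (limma adjusted p = 0.0111). SLC7A5, the transporter of large neutral amino acids, fell, with 10.65 and 10.63 with fluvastatin against 12.10 and 12.17 in controls (-1.50 ± 0.15, limma adjusted p = 0.0083), as did PSAT1 of serine synthesis (-1.36 ± 0.15, limma adjusted p = 0.0092). The transcript of ATF4 itself, named for its place in the list, was at -0.13 ± 0.16 (limma adjusted p = 0.612). With median scaling, 8 of the list were higher and 2 lower. In that setting 22.2% of all genes passed, and of the probes kept 3353 were higher and 961 lower.

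The E-box CACGTG, the site of MYC and its partners, was in 12.8% of the 39 member promoters and in 7.26% of all. It was in those of CARS2, EARS2, IARS1 and MARS2, with 1 site of EARS2 counted for both of its listed starts. The match of MARS2 begins 11 bases before its start, and is shown because MARS2 changed most:

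MARS2, chr2:197705346-197705375, plus strand: atgcgcctctcaCACGTGctgtcagaacgc

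Further elements of interferon signalling were searched because WARS1 is known to be induced by interferon gamma. The core of the interferon-stimulated response element (GAAA, any 2 bases and GAAA, both strands) was in 7.69% of member promoters and 3.57% of all, and TTCNNNGAA in 17.9% and 7.66%. By gene these elements were in 2 and 5 of 30 members. The shares count promoters, and 1 site each of EARS2 and WARS2 was counted for both listed starts. Of the 2 promoters listed for WARS1, 1 holds both, and its response element core, 55 bases before the start and in capitals, reads:

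WARS1, chr14:100375383-100375412, minus strand: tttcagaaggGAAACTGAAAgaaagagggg

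WARS1 was measured by 2 kept probes. The brighter had log2 intensities of 9.70 and 9.45 with fluvastatin, against 9.25 and 9.30 in controls. The other had 9.24 and 8.53 with fluvastatin, against 8.46 and 8.44 in controls. Both probes were above their controls, most in fluvastatin replicate 1, with log2 fold changes of 0.31 ± 0.17 and 0.43 ± 0.26 that did not pass (limma adjusted p = 0.245 and 0.282).

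Synthetases fall into class I and class II by the fold of their catalytic domain, and EPRS1 joins a catalytic domain of each kind. Class I members had 4 lower of 17 and a median log2 fold change of -0.20, and class II members had 2 lower of 16 and a median of -0.20, with 0 higher in either class. At an unadjusted p under 0.05, class I had 0 higher and 5 lower and class II had 1 higher and 6 lower (20.8% and 19.2% of all genes). Of the cytosolic enzymes, 7 belong to the multisynthetase complex, in which EPRS1, IARS1, KARS1, LARS1, MARS1, QARS1 and RARS1 are held together. None of these 7 passed by limma (0 higher and 1 lower at an unadjusted p under 0.05, by which 19.2% of all genes were lower), and their median was -0.10. The 11 measured cytosolic enzymes outside the complex had 2 lower (18.2%, against 9.65% of all genes) and a median of -0.31. They gave 1 higher and 5 lower at an unadjusted p under 0.05, where 20.8% of all genes were higher and 19.2% lower. Enzymes inside and outside the complex were not tested against each other. Of the scaffold proteins of the complex, AIMP1 had a probe that did not pass the detection filter, and AIMP2 and EEF1E1 had no named probe.

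Companion lists held the genes that trim, export and modify the tRNAs on which the synthetases act. Of 29 measured genes of tRNA processing and export, 7 fell and 0 rose (24.1% lower, against 9.65% of all genes), with a median log2 fold change of -0.46. TSEN15, a subunit of the tRNA splicing endonuclease, had 8.88 and 9.06 with fluvastatin, against 10.45 and 10.34 in controls (-1.43 ± 0.16, limma adjusted p = 0.0097). The ribonuclease P and MRP subunit genes RPP40 (-1.33) and POP7 (-0.87) fell too. TRNT1, which adds the CCA end that receives the amino acid, fell by 0.96 ± 0.16 (limma adjusted p = 0.0188).

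Of 48 measured genes of tRNA modification, 12 fell and 0 rose (25.0% lower), with a median of -0.42. The pseudouridine synthases PUS7 (-1.49 ± 0.17) and PUS1 (-1.35 ± 0.16), the cytosine methyltransferase NSUN2 (-1.09 ± 0.15) and TRMT6 (-1.57 ± 0.22), a subunit of an adenine methyltransferase, had the smallest p. NSUN2 had 10.77 and 10.75 with fluvastatin, against 11.89 and 11.81 in controls, and the fluvastatin arrays were nearly equal. At an unadjusted p under 0.05 these lists had 0 higher, with 16 lower of 29 for processing and 22 lower of 48 for modification, where 20.8% of all genes were higher and 19.2% lower. Of 8 measured genes related to the synthetases, for editing, selenocysteine and the glutamine route of mitochondria, 1 fell: PSTK, a kinase of the selenocysteine route, at -0.91 ± 0.17 (limma adjusted p = 0.0254), with 1 higher and 3 lower at an unadjusted p under 0.05. With median scaling, 10 genes of these lists were lower and 0 higher, against 20 lower and 0 higher here. On that scale 22.2% of all genes passed, and of the probes kept 3353 were higher and 961 lower. Counts with 1 array left out are given at the end, beside those of all probes.

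**Figure D4:**
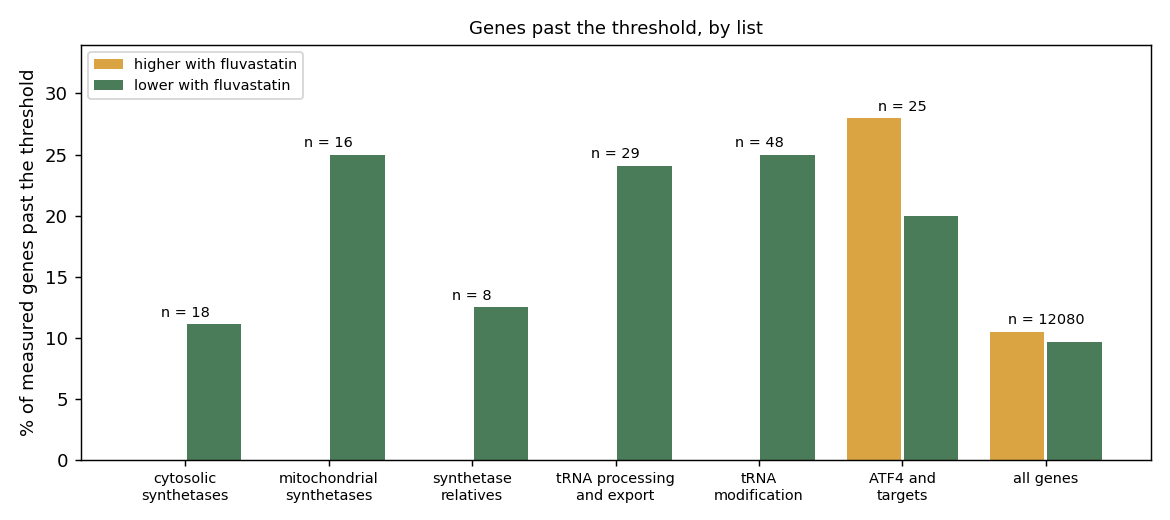
Percent of the measured genes of each list past the threshold, higher (left bar) and lower (right bar) with fluvastatin, with the number measured above each pair. The lower bars stand at 25.0% for the mitochondrial and 11.1% for the cytosolic synthetases, 24.1% for tRNA processing, 25.0% for tRNA modification and 9.65% for all genes.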

How the data were processed

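Total RNA was labelled as biotinylated cRNA and hybridised to Illumina bead arrays, per the labels' protocols. The authors deposited 1 intensity per probe and sample for 47231 probes with a detection p-value each, per the file headers, and as far as the values show without background subtraction or normalization. Their deposited log2 table has columns of nearly equal distribution (medians 6.23); R 3.1.0 was used, per the submitters' processing notes, and the package is not given in the sources used here. Groups come from the sample titles and characteristics, since the protocol text given for fluvastatin samples describes the water treatment. The number of arrays limits the precision.

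For the comparison, limma's neqc (version 3.58.1, R 4.3.3) was applied to the intensities (background from the detection p-values, normexp, offset 16, quantile normalization, log2). The filter kept 21986 probes that were detected (p under 0.05) on 2 or more of the 4 independent arrays. They were compared by lmFit and eBayes, two-sided, with 2 residual and 3.72 prior degrees of freedom and Benjamini-Hochberg adjustment, and 3722 (16.9%) passed a threshold of 0.05. Steps were tested on simulated data. Symbols came from the platform annotation: 30113 probes had 1, 8 had several and 17110 had none. Promoters are those of RefSeq (GRCh38.p14). The files name no genome build.

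The members and lists were chosen with earlier results of these data known. Every measured member is named, and of each other list up to 4 genes past the threshold with the smallest p. Alternatives were all 5 columns, no background correction, an offset of 50, median scaling, the authors' values, no filter on dim probes, detection on all 4 arrays, the mean of the kept probes of a gene, an intensity trend with a robust prior, and leaving out each array.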

Additional observations from a re-analysis of the deposited data

How the results depend on the processing

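Directions of the 6 synthetases past the threshold were kept in each of 13 other settings, and the call of MARS2 in all 13. The count of 6 synthetases (2 cytosolic, 4 mitochondrial) became 17 (10 and 7) with all 5 columns, 11 (7 and 4) without background correction, 11 (7 and 4) on the authors' values and 3 (0 and 3) with median scaling. Of all genes, 45.6%, 27.2%, 27.5% and 22.2% passed in these settings, in that order, against 20.1% here. Cytosolic counts were 5 with an offset of 50, 4 with the mean of the kept probes and 5 with a trend and robust prior. Without the filter on dim probes 2 mitochondrial members passed. In these settings 26.9%, 26.6%, 26.7% and 9.06% of all genes passed, in that order. Leaving out 1 array gave 1 to 9 synthetases, 0 to 5 cytosolic and 1 to 7 mitochondrial, 256 to 7238 probes in all (3722 here, 8927 with all 5 columns), 0 to 32 companion tRNA genes and 0 to 14 of the ATF4 list. The 20 companion tRNA genes became 49 with all 5 columns and 10 with median scaling. Of all probes, 1899 were higher and 1823 lower, but 3353 and 961 with median scaling. That setting also gave every member the same moderated SE (0.296), so its calls do not isolate the scaling. Medians with median scaling were 0.0494 for all members, 0.0638 for the cytosolic and -0.0129 for the mitochondrial set. Leaving out 1 array gave medians of -0.27 to -0.18 for all members, -0.24 to -0.13 for the cytosolic and -0.29 to -0.14 for the mitochondrial set. Members that turned sign had not passed: with median scaling HARS2 (0.117), LARS1 (0.0851), MARS1 (0.0768), PARS2 (0.296), RARS1 (0.0507), SARS2 (0.177), VARS2 (0.0482) and WARS2 (0.0731), and leaving out 1 array AARS1 (-0.0338 to 0.151), GARS1 (-0.00799 to 0.326), LARS1 (-0.300 to 0.0872), MARS1 (-0.306 to 0.0131) and RARS1 (-0.223 to 0.0217). The causes were not tested. A lone array left in a group was assumed to vary like the other group. No paired analysis was possible because, with control replicate 2 left out, the groups share only the replicate number 1.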
